A study of Mus musculus with 8 samples.

Results

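The genes described here encode the cytoskeleton and growth machinery of neurons: Gap43, Stmn2, Tubb3, Dcx, Map2, Mapt, Nefl, Nefm, Ina and Syp. They were chosen by name, with earlier results of these data known. All 10 were read by a probe set of their own among the 19938 genes so measured. Ina was read by 2 probe sets and each of the others by 1, which gave 11 measurements. Gene expression was compared between E14 cells, a line of mouse ESCs (embryonic stem cells), with a stable shRNA against Kdm2b (4 arrays, passages 27 to 30) and E14 cells with a stable scrambled shRNA (4 arrays, passages 28 to 31). KDM2B is a protein that binds non-methylated CpG dinucleotides and is part of a variant of the polycomb repressive complex PRC1, and the arrays address which genes depend on it.

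Both lines received the shRNA through the same kind of lentiviral vector, which carries puromycin resistance, and both were grown in ES medium with 10 ng/mL LIF (leukemia inhibitory factor). Total RNA of each sample was read on its own Affymetrix Mouse Gene ST array. The labels describe the samples as independent biological replicates taken in parallel. Each group rests on a single shRNA, and no second line is named, so that the p-values below measure the spread between these samples. The hairpins, shown because they are the only designed difference between the groups, had these target sequences of 21 bases, 5′ to 3′, with none of the bases singled out by capitals.
Kdm2b shRNA: cgctgtggaaatatctgtcat
scrambled shRNA: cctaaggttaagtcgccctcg

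A growing neuron extends its axon and dendrites on microtubules, which are polymers of tubulin bundled by proteins such as MAP2 and tau and taken apart by proteins of the stathmin family. Neurofilaments are the intermediate filaments that fill and widen the axon, and GAP43 is an abundant membrane-attached protein of the growth cone at its tip. In ESCs most genes of terminally differentiated neurons are held at low levels.

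The values are log2 signals after RMA (robust multi-array average), in which a difference of 1 is a doubling. The median of all probe sets lay between 8.47 and 8.53 on the 8 arrays. Kdm2b itself separated the groups, with 8.68 to 9.45 in the knockdown and 10.74 to 11.34 in the control (log2 fold change -2.05, limma adjusted p = 0.000891). The first principal component of all probe sets held 51.7% of the variance and placed knockdown replicate 3 closest to the control arrays. A gene was called where most of its own probe sets had an adjusted p below 0.05 and the most significant of them changed at least 1.5-fold. By this rule 284 genes rose (1.42%) and 285 fell (1.43%).

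Since KDM2B reads CpG content, the promoters of the neuronal genes are shown as RefSeq gives them for GRCm38.p6, in windows from 250 bases before to 50 bases after the start of the gene. A window was given for 5 of the 10 genes, namely Tubb3, Dcx, Map2, Ina and Syp, and Gap43, Stmn2, Mapt, Nefl and Nefm had none. The 250 bases before the start are printed for the richest window (Map2), the poorest (Dcx) and 1 between them (Tubb3), on the strand of the gene, with each CpG in capitals.
Map2, chr1:66175079-66175328, plus strand: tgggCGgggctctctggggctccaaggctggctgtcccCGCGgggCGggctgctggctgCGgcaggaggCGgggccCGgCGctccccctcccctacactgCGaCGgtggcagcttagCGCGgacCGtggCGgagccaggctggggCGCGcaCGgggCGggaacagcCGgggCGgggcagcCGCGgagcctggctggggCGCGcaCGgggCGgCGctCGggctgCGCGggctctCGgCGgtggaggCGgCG
Tubb3, chr8:123411303-123411552, plus strand: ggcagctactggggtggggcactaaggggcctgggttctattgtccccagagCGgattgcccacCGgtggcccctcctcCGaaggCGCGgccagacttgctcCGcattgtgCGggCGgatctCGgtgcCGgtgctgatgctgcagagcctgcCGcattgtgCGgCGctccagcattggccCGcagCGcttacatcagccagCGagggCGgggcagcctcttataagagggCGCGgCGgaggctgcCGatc
Dcx, chrX:143933125-143933374, minus strand: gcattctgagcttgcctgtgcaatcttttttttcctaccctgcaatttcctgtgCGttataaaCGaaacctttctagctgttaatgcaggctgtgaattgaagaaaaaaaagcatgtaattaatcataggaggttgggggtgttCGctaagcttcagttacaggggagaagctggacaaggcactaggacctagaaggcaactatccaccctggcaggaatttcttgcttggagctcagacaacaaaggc

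Over the whole window of 300 bases, Map2 held 37 CpG, a number that 5.58% of all 32851 windows reached, and Ina held 32 (9.52%). Tubb3 held 26 (16.9%) and Syp held 18 (29.7%), and the upper quartile of all windows, 20, lay between them. Dcx held 3, the lower quartile of all windows, against a median of 7. Dcx had another window that overlaps the one printed and also held 3. These counts describe letters only, and neither methylation nor KDM2B binding was measured on the arrays.

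**Figure D1:**
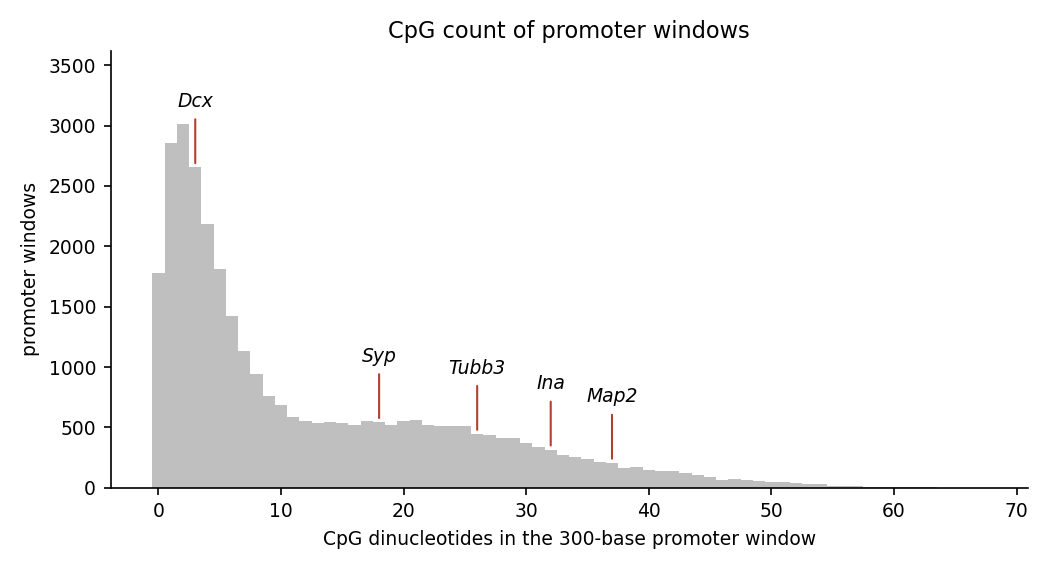
CpG dinucleotides in 300-base promoter windows of RefSeq genes (x axis, number of CpG, y axis, number of windows out of 32851), with the neuronal genes that had a window marked. Map2 and Ina lie in the CpG-rich tail and Dcx lies at 3, below the median of 7.

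Of the 10 neuronal genes, Gap43 fell in the limma fit and none rose, beside 1.43% and 1.42% of all genes. The other 9 did not pass the rule. Without the minimum fold the counts stayed at 1 lower and 0 higher, beside 4.55% and 5.75% of all genes. At an unadjusted p below 0.05, 4 were lower (Gap43, Map2, Nefl and Ina) and 3 were higher (Stmn2, Tubb3 and Mapt), beside 13.6% and 16.8% of all genes. The knockdown and control arrays did not overlap for 3 lower genes (Gap43, Map2 and Nefl) and for 3 higher ones (Stmn2, Tubb3 and Mapt), beside 9.18% and 11.8% of all genes. The genes did not share 1 direction, since 5 log2 fold changes were below 0 and 5 were above it, with a median of -0.07 against 0.05 over all genes.

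**Figure D2:**
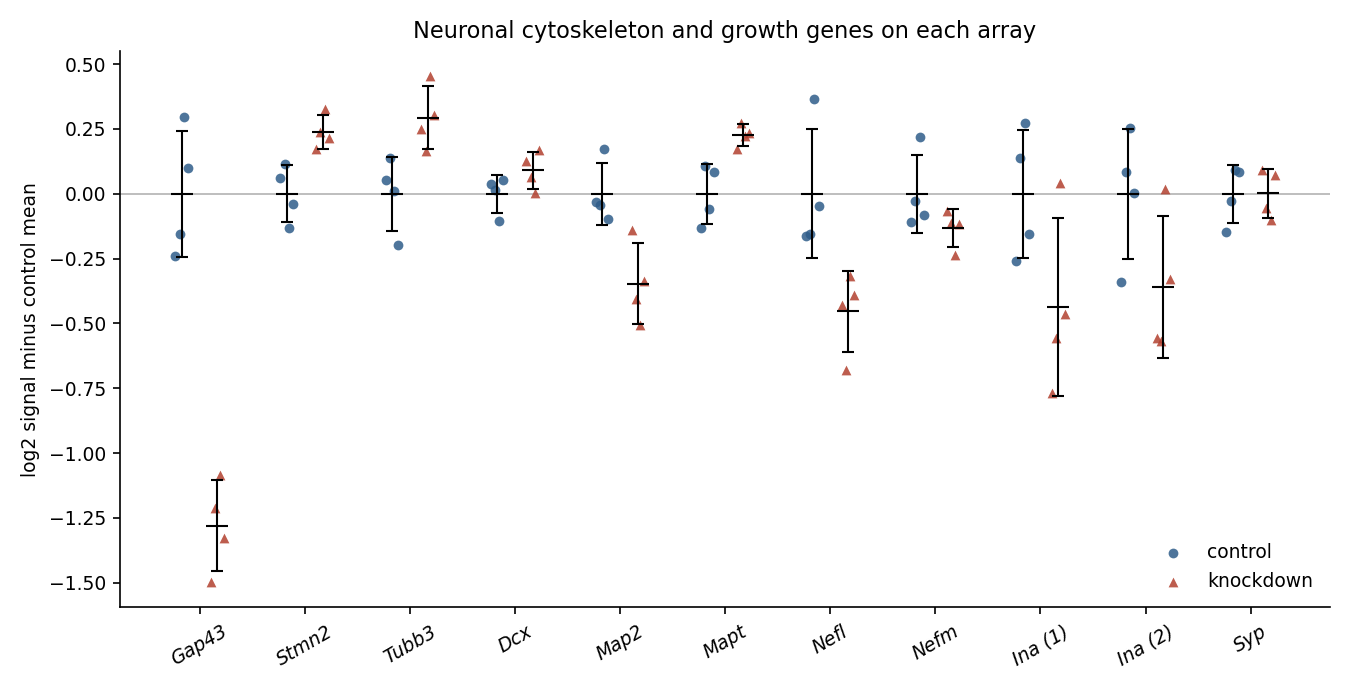
Log2 signal of each of the 11 probe sets on each array, minus the mean of the 4 control arrays (y axis), by gene (x axis). Blue circles are control arrays, red triangles knockdown arrays, and bars the mean and SD of 4 arrays, with Gap43 the only gene whose groups lie more than 0.8 apart.

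Gap43, which encodes the growth-associated protein of axonal growth cones, read 8.43, 8.72, 8.85 and 8.60 in the knockdown and 9.69, 9.77, 10.22 and 10.03 in the control, in the order of replicates 1 to 4 here and for each gene below. Every knockdown array was lower than every control array, with a gap of 0.84 between the nearest arrays of the groups. Gap43 differed by -1.28 on the log2 scale (SE, the standard error, 0.13; 95% confidence interval -1.58 to -0.98, limma adjusted p = 0.00204), a level 2.43-fold lower. The arrays measured bulk RNA, in which fewer cells with a transcript and less of it per cell cannot be told apart. Within the 4 pairs of equal replicate number the difference ran from -1.43 to -1.06. The call was lost in the comparison restricted to passages 28 to 30, 3 arrays a group with passage as a block, where the log2 fold change was -1.17 (SE 0.16, limma adjusted p = 0.0584).

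Among the microtubule genes, Map2 encodes the microtubule-associated protein of dendrites. It read 9.32, 9.06, 8.95 and 9.13 in the knockdown and 9.43, 9.42, 9.63 and 9.36 in the control. The groups did not overlap, though only 0.04 lay between knockdown replicate 1 and control replicate 4. The difference in log2 was -0.35 (SE 0.09, 95% confidence interval -0.56 to -0.14), which did not pass the test (limma adjusted p = 0.0541). Without knockdown replicate 1 the adjusted p was 0.0279 at a log2 fold change of -0.42, still short of 1.5-fold.

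Mapt, which encodes the axonal microtubule-associated protein tau, had its values on the other side. It read 8.86, 8.97, 8.91 and 8.93 in the knockdown and 8.56, 8.80, 8.63 and 8.78 in the control, so that all knockdown arrays were above all control arrays, by 0.06 at the nearest. Its log2 fold change was 0.23 (SE 0.07, limma adjusted p = 0.0753), below the threshold of the test.

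Tubb3 encodes class III beta-tubulin, the isotype used as a marker of young neurons. It read 10.08, 10.00, 10.29 and 10.14 in the knockdown and 9.89, 9.97, 9.84 and 9.64 in the control. The groups were apart by 0.03, between knockdown replicate 2 and control replicate 2, and the log2 fold change of 0.29 (SE 0.09, 95% confidence interval 0.09 to 0.50) did not pass (limma adjusted p = 0.0813).

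Stmn2 encodes stathmin-2, a microtubule-destabilizing protein of growth cones. Its probe set was bright on every array, with 13.74, 13.81, 13.90 and 13.78 in the knockdown and 13.63, 13.68, 13.44 and 13.53 in the control. The knockdown arrays were all higher, by 0.06 at the nearest, with a log2 fold change of 0.24 (SE 0.07, limma adjusted p = 0.0699).

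Dcx encodes doublecortin, a microtubule-binding protein of migrating young neurons. It was dim, with 6.90, 6.84, 6.78 and 6.94 in the knockdown and 6.81, 6.79, 6.67 and 6.83 in the control, all below the array medians. The groups overlapped, and the log2 fold change was 0.09 (95% confidence interval -0.05 to 0.23, limma adjusted p = 0.379). RMA compresses differences of such dim probe sets, so that this interval holds for the signal and may understate a difference in RNA.

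The intermediate filament genes Nefl, Nefm and Ina encode the neurofilament light chain, the neurofilament medium chain and alpha-internexin, which assemble together in axons. Nefl read 10.45, 10.20, 10.56 and 10.49 in the knockdown and 10.72, 10.72, 11.24 and 10.83 in the control. All knockdown arrays were lower, by 0.15 at the nearest, and control replicate 3 was the highest array. For Nefl the difference in log2 was -0.45 (SE 0.13, 95% confidence interval -0.75 to -0.16, limma adjusted p = 0.0688). In the paired fit, which adds replicate number as a block, Nefl had a limma adjusted p of 0.0279, and the size remained below 1.5-fold.

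Both probe sets of Ina were read, and neither passed. The first read 11.77, 11.98, 12.58 and 12.07 in the knockdown and 12.28, 12.67, 12.81 and 12.38 in the control, and the second read 11.69, 11.67, 12.26 and 11.91 against 11.90, 12.33, 12.50 and 12.24. Knockdown replicate 3 stood above part of the control arrays at both, so that the groups overlapped, while each knockdown array was below the control array of its own number. The log2 fold changes were -0.44 (SE 0.18, limma adjusted p = 0.174) and -0.36 (SE 0.16, limma adjusted p = 0.201). In the paired fit the adjusted p was 0.0362 for the first and 0.0547 for the second. Without knockdown replicate 3, the array closest to the controls on the first principal component, the first reached -0.60 (adjusted p = 0.0318) and the second -0.48 (adjusted p = 0.0557). Ina was still not called, since only the first of its probe sets passed, which is not a majority.

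Nefm was dim, with 7.76, 7.71, 7.59 and 7.71 in the knockdown and 7.72, 7.80, 8.04 and 7.74 in the control. The groups overlapped, and the log2 fold change was -0.13 (95% confidence interval -0.32 to 0.05, limma adjusted p = 0.344). Syp encodes synaptophysin, a membrane protein of synaptic vesicles, and read 8.64, 8.49, 8.45 and 8.62 in the knockdown and 8.40, 8.52, 8.64 and 8.63 in the control. Its groups overlapped, with a log2 fold change of 0.00 (95% confidence interval -0.17 to 0.17, limma adjusted p = 0.990).

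**Figure D3:**
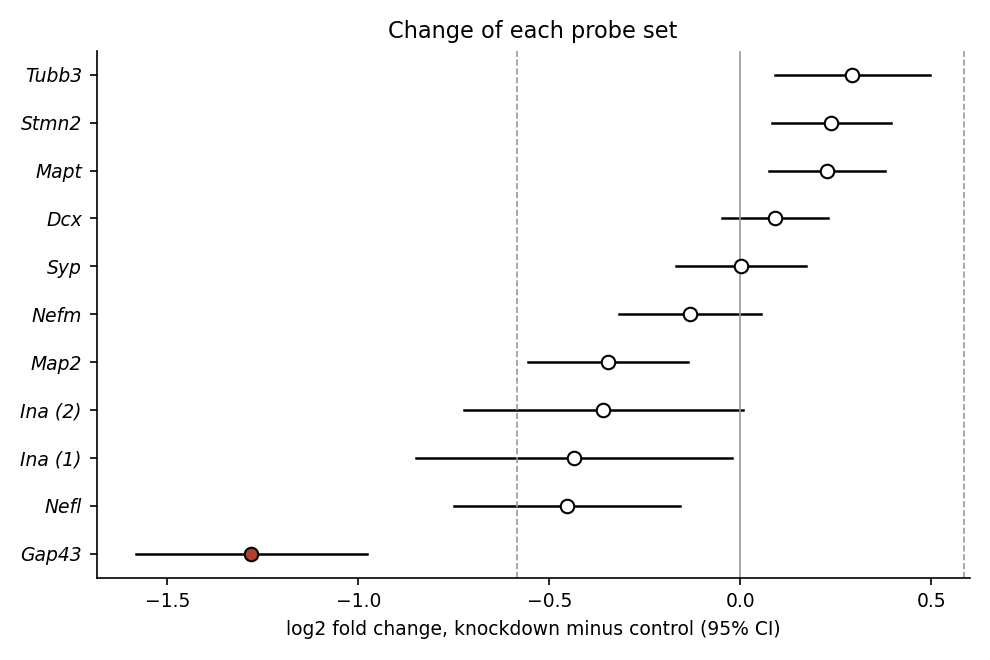
Log2 fold change, knockdown minus control, of each probe set with its 95% confidence interval from limma. The interval of Gap43 runs from -1.58 to -0.98, and those of the other genes all lie between -0.85 and 0.50.

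Genes of the same processes were then read from 7 further lists, of which 100 of 105 genes were measured. Of these, 4 rose (Prph, Tubb2a, Dclk2 and Tppp3) and 1 fell (Syt11), beside 1.42% and 1.43% of all genes. The median log2 fold change of the 100 genes was 0.07. The groups did not overlap for 28 of the 100, beside 6 of the 10 neuronal genes described above (60.0%) and 21.0% of all genes.

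Of 6 other intermediate filament genes of neural cells, Prph rose. It encodes peripherin, a filament protein of peripheral neurons, and read 9.93, 9.75, 9.60 and 9.78 in the knockdown and 9.35, 9.22, 8.98 and 9.01 in the control, with no overlap. Its log2 fold change was 0.63 (SE 0.10, limma adjusted p = 0.0108), opposite in sign to those of Nefl, Nefm and Ina. The call was lost on the size, not on the p, without knockdown replicate 1 (0.57), control replicate 3 (0.57) or control replicate 4 (0.58). Nes, which encodes the filament protein nestin of neural progenitors, had a log2 fold change of -0.78 that missed the threshold (SE 0.20, limma adjusted p = 0.0512). It passed in the paired fit (adjusted p = 0.0376) and without control replicate 2 (-0.98, adjusted p = 0.0134).

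Of 11 other tubulin genes measured, Tubb2a rose, with 10.57, 10.73, 10.60 and 10.47 in the knockdown and 10.13, 10.05, 9.85 and 9.94 in the control. The groups were apart, and the log2 fold change was 0.60 (SE 0.08, limma adjusted p = 0.00525). Its near-identical copy Tubb2b had a log2 fold change of 0.31 (adjusted p = 0.0287), and since such copies can share probe signal, the split between them is uncertain. The size of Tubb2a was below 1.5-fold without knockdown replicate 2 (0.55), control replicate 3 (0.55) or control replicate 4 (0.58), and with arrays centred on their medians (0.58). The list had a median of 0.13. Without the minimum fold 3 of its genes passed, all higher, where 5.75% of all genes were higher and 4.55% lower.

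Of 19 other microtubule-associated and microtubule-destabilizing genes, Dclk2 and Tppp3 rose and none fell, beside 1.42% and 1.43% of all genes. Dclk2 encodes a doublecortin-like kinase and read 10.19 to 10.44 in the knockdown and 9.33 to 9.71 in the control (log2 fold change 0.73, SE 0.09, limma adjusted p = 0.00470). Tppp3 encodes a tubulin polymerization-promoting protein and read 10.92 to 11.05 against 9.98 to 10.49 (log2 fold change 0.77, SE 0.11, limma adjusted p = 0.00793). Neither pair of groups overlapped. The median of the list was 0.01.

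None of the 21 other growth cone and neurite genes was called by limma, whereas 5 were higher and 4 lower at an unadjusted p below 0.05, a level that 16.8% and 13.6% of all genes reached. Dpysl4, a member of the collapsin response mediator family, had a log2 fold change of 0.58 (limma adjusted p = 0.00420) and Rtn1, which encodes the reticulon 1 of the endoplasmic reticulum, of 0.55 (adjusted p = 0.0107), both short of 1.5-fold. Dpysl4 was called when any of knockdown replicates 1 and 3 and control replicates 1 and 4 was left out (0.60 to 0.61), and Rtn1 without control replicate 2 or 3 (0.59 for both). Crmp1, another collapsin response mediator, was called lower without control replicate 1 (-0.62, adjusted p = 0.0307), and was chosen after its values were seen.

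Of 20 other synaptic vesicle and presynaptic genes measured, Syt11 fell. It encodes synaptotagmin 11, a membrane trafficking protein, and read 9.53, 9.28, 9.56 and 9.43 in the knockdown and 10.12, 10.06, 10.74 and 10.14 in the control, with no overlap. Its log2 fold change was -0.82 (SE 0.15, limma adjusted p = 0.0166). The call was lost without knockdown replicate 2 (-0.76, adjusted p = 0.0569) or knockdown replicate 4 (-0.81, adjusted p = 0.0513). The list as a whole had a median of 0.17, with 16 of 20 genes above 0, where 61.7% of all genes lay above 0.

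None of the 10 axonal transport motor genes was called by limma. Before adjustment (p below 0.05) 2 were higher and 1 was lower, beside 16.8% and 13.6% of all genes. The neuronal kinesins Kif5a and Kif3c had the smallest p, with log2 fold changes of 0.36 (adjusted p = 0.0495) and 0.29 (adjusted p = 0.136). Kif21a, another kinesin, was called lower without control replicate 1 (-0.67, adjusted p = 0.0216), and was chosen after its values were seen. None of the 13 repressors and splicing factors of neuronal genes was called. Before adjustment (p below 0.05) 0 were higher and 1 was lower, beside the same shares of all genes. The splicing factor gene Rbfox2 had a log2 fold change of -0.20 (limma adjusted p = 0.0895) and Rcor1, which encodes a corepressor of REST, of 0.19 (adjusted p = 0.218). Rest, the repressor of neuronal genes itself, had -0.11 (adjusted p = 0.361) and is named outside the rule.

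**Figure D4:**
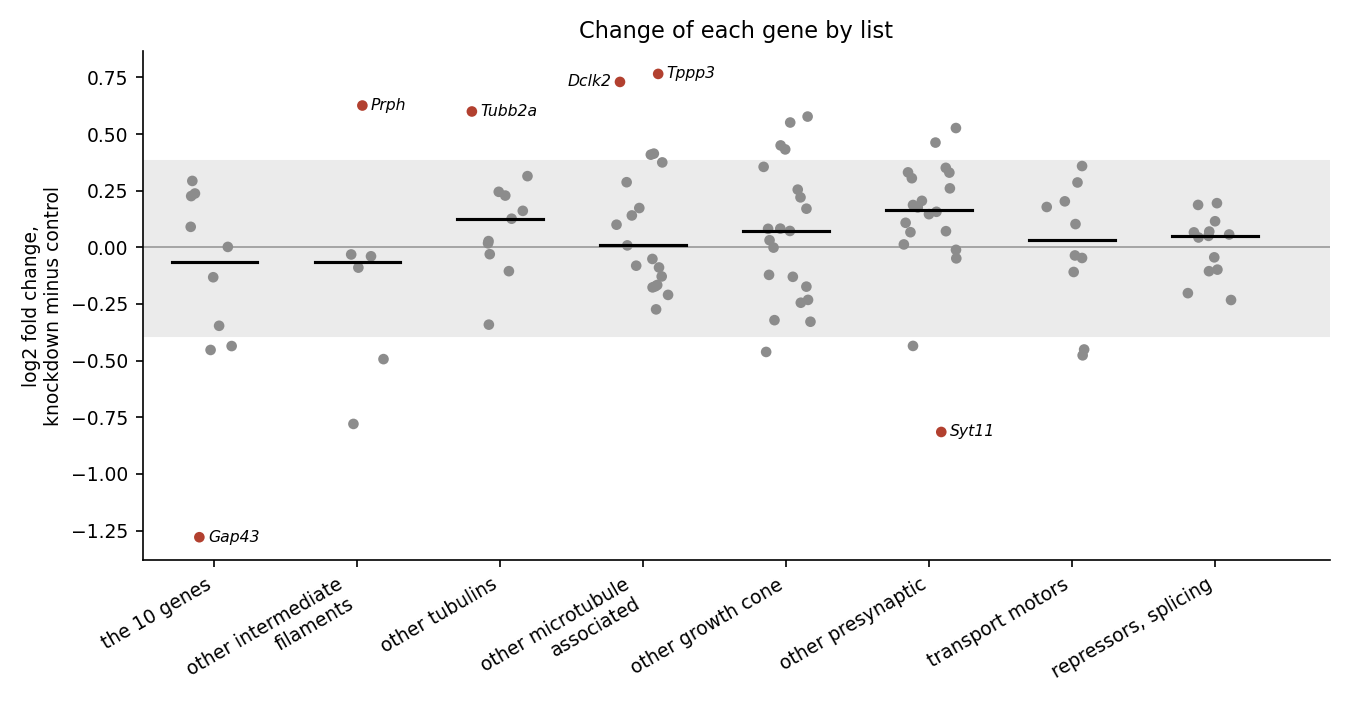
Log2 fold change, knockdown minus control, of each measured gene (points) by list, with the median of each list (black line) and the range that held the middle 90% of all genes (grey band, -0.39 to 0.38). Called genes are red and named, and Gap43 at -1.28 lies lowest.

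The genes whose signal followed that of Gap43 most closely over the 8 arrays, among the 19937 other genes, were Abcb1b (Pearson r = 0.993), Kdm2b (0.993), Cabin1 (0.988), Dgkk (0.987) and Irgm1 (0.984). Abcb1b encodes a drug efflux transporter, Cabin1 a calcineurin-binding protein, Dgkk a diacylglycerol kinase and Irgm1 an interferon-inducible GTPase. The arrays form 2 groups, so that these coefficients mostly repeat the difference between the groups and are given as a description. The order within the groups was also shared. For Gap43 and for Kdm2b the knockdown arrays, from low to high, were replicates 1, 4, 2 and 3, and the control arrays 1, 2, 4 and 3. The first principal component of all probe sets ordered the arrays of each group in the same way, and its part in the likeness was not tested. Of the other neuronal genes, Nefl had r = 0.861 and Stmn2 r = -0.858 with Gap43 over the same arrays, and Syp had 0.05. After removal of the group means, r was 0.64 for Nefl, -0.36 for Stmn2 and 0.21 for Syp.

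**Figure D5:**
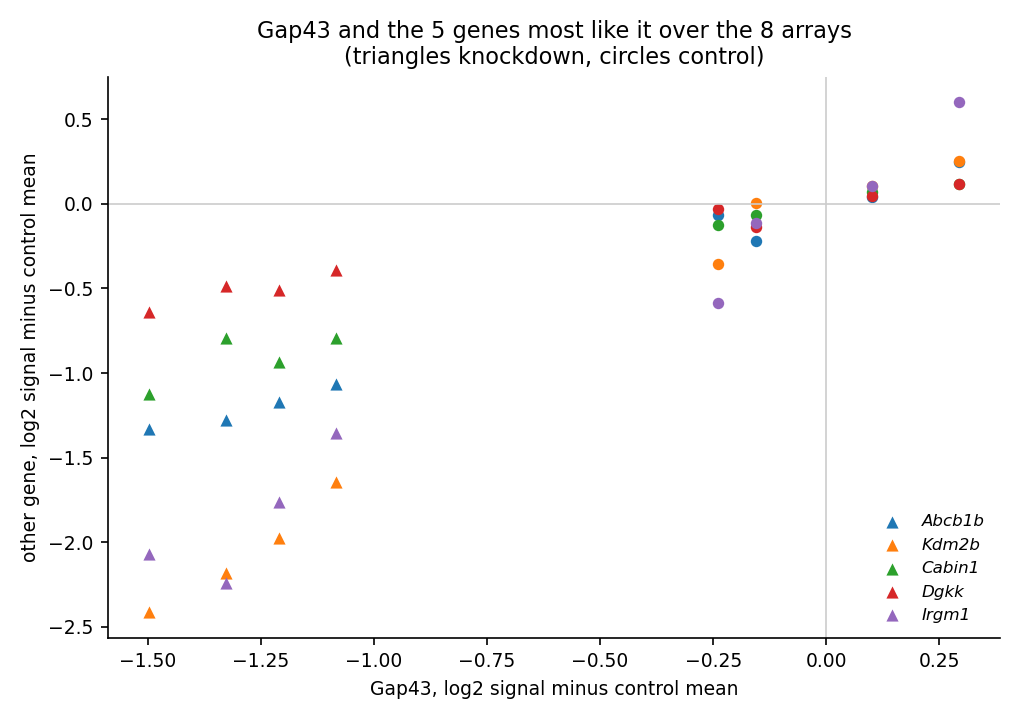
Signal of the 5 genes most like Gap43 (y axis) against that of Gap43 (x axis) on the 8 arrays, both in log2 minus the control mean (triangles, knockdown, circles, control). Both groups lie apart for every gene, and Kdm2b and Irgm1 span the widest range.

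The cultures were checked against marker lists. All 10 ESC markers lay above the array medians, with a summed linear signal of 107366 to 109149 in the knockdown and 95352 to 103038 in the control, without overlap. None of them was called, though 6 of the 10 were higher and 1 lower before adjustment (p below 0.05), beside 16.8% and 13.6% of all genes. The lower gene, Lin28a, was the only ESC marker with an adjusted p below 0.05 (log2 fold change -0.40, limma adjusted p = 0.0439, short of 1.5-fold). Of 13 neuron markers 5 lay above the array medians, and none was called by limma. At an unadjusted p below 0.05, 3 were higher and 2 lower, beside 16.8% and 13.6% of all genes. The largest changes were those of Elavl3 (log2 fold change 0.74, limma adjusted p = 0.0607) and Slc17a7 (0.52, adjusted p = 0.0351, short of 1.5-fold). Both were higher, without overlap of the groups. Of the 13, 7 were below 0, down to -0.28. The summed signal of the neuron list was 6106 to 7820.1 in the knockdown and 5901 to 6350.0 in the control. The 11 neural progenitor markers measured did not share a direction: 6 were above 0, and the median log2 fold change was 0.05. At an unadjusted p below 0.05, 2 were higher and 4 lower, beside 16.8% and 13.6% of all genes. Called lower were 3 of the 11 and higher none, beside 1.43% and 1.42% of all genes. The 3 transcription factor genes were Neurod1 (log2 fold change -1.59, limma adjusted p = 0.00859), Sox11 (-1.14, adjusted p = 0.00141) and Pax6 (-1.01, adjusted p = 0.0212). Pax6 was not called without knockdown replicate 2 (-0.99, adjusted p = 0.0683), knockdown replicate 4 (-1.01, adjusted p = 0.0619) or control replicate 2 (-0.93, adjusted p = 0.0624). Msi1, which encodes an RNA-binding protein of progenitors, had a log2 fold change of 0.88 (limma adjusted p = 0.0582) and was called higher in the paired fit (adjusted p = 0.0199). The summed signal of the progenitor list overlapped, at 5786 to 8250.0 against 7414 to 8586, and its mean log2 signal did not, at 8.72 to 8.93 against 9.08 to 9.27. The part of neural progenitor cells in the Gap43 result was not tested.

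Among markers of other cell types, Thy1, which encodes a surface protein of fibroblasts and of neurons, rose (log2 fold change 0.72, limma adjusted p = 0.000475), and the trophoblast keratin gene Krt8 fell (-1.24, adjusted p = 0.0204). Krt8 was not called without knockdown replicate 2 (-1.27, adjusted p = 0.0587), knockdown replicate 4 (-1.15, adjusted p = 0.0629) or control replicate 4 (-1.15, adjusted p = 0.0572). The other 7 fibroblast and 4 trophoblast markers were not called, but Krt18, the partner keratin of Krt8, had a log2 fold change of -0.86 (limma adjusted p = 0.101) and was called lower in the paired fit (adjusted p = 0.0287). No marker of glia or of primitive endoderm (6 measured of each) was called by limma. At an unadjusted p below 0.05, 1 glia marker was higher and 0 were lower. For primitive endoderm 4 were higher and 1 was lower, beside 16.8% and 13.6% of all genes. The lower gene was Dab2 (log2 fold change -0.95, limma adjusted p = 0.0525), whose second probe set had 0.08. The summed signal was 4273 to 7602 in the knockdown and 7414 to 13880.5 in the control for trophoblast, and it overlapped between the groups for this list and for fibroblast, glia and primitive endoderm.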

How the data were processed

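The deposited values are on the log2 scale and were computed by the authors from scanner intensities by RMA in oligo (version 1.18.1, submitters' processing notes), so that background correction, quantile normalization and probe summary are part of them. The genome build behind the probe sets is not given in the sources used here. Arrays have no read depth, and their number (4 per group) limits the precision. All 8 samples were grouped by their labels. Of 35556 probe sets, 21789 name 1 gene and were used for genes, 1621 name several and 12146 have no name here. Symbols came from GEO's platform annotation, updated through RefSeq (19856 of 19938 matched).

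The model of limma 3.58.1 (R 4.3.3; lmFit, eBayes) was fitted to all probe sets, and p-values were adjusted over the whole table (Benjamini-Hochberg). The test and the gene rule follow the study's methods. The pipeline was tested on simulated data. The genes, lists and alternatives were chosen with earlier results of these data known. Named were the 10 genes, all called genes of each further list (or, with none, the 2 with the smallest p), and the called markers. The 5 genes most like Gap43 and Kdm2b were also named. Outside this rule, Nes, Tubb2b, Msi1, Krt18, Dab2, Crmp1, Kif21a, Rest, Elavl3, Slc17a7 and Lin28a were named too. Snap25 and Syt1 are in both the presynaptic and neuron lists, Nes and Gfap in both the filament and a marker list. Listed genes that no probe set used here names alone are not analysed here.

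After removal of group means, knockdown and control arrays of the same number correlated at 0.239, 0.118, 0.355 and 0.222 (replicates 1 to 4), against -0.231 to 0.0747 between different numbers. Since each exceeded 0.1 and the labels say that samples were collected in parallel, arrays of 1 number were treated as pairs in the paired fit. Each knockdown array was 1 passage below the control array of its number (27 against 28 up to 30 against 31), and whether a number marks a shared day or batch is not stated, so that values of the paired fit rest on this reading. The paired fit is an alternative, and the main fit, which gave the calls, had no pairing. The other alternatives left out each array, kept passages 28 to 30 with passage as a block, centred arrays on their medians, left out dim probe sets, used a trended and robust prior, dropped the minimum fold, or used every probe set naming a gene. Arrays of equal passage, the blocks of the passage fit, correlated at -0.0454, -0.0899 and -0.0977 (passages 28 to 30) after removal of group means. Promoter windows came from RefSeq (GRCm38.p6). Figures were drawn with matplotlib 3.10.9.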

Additional observations from a re-analysis of the deposited data

Results flagged for a closer look

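The control value of Syt11 in replicate 3 (10.74) stood apart from the other control arrays (10.06 to 10.14), the gap to the nearest being 0.886 of the range of the 4. Of 46 groups of 4 arrays examined this way, it was the only 1 past the 95% limit of Dixon's test, which chance passes in about 1 in 20 groups. Without control replicate 3 the log2 fold change of Syt11 was -0.66 (adjusted p = 0.00868 from limma), against -0.82 with all arrays.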

How the results depend on the processing

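The log2 fold change of Gap43 ran from -1.36 to -1.17 over 15 alternatives and was called in 14. The alternatives without the minimum fold and with every probe set naming a gene reused the main fit and repeated its -1.28. Dropping the minimum fold could not have removed the call. Among passages 28 to 30 with passage as a block it was -1.17 and not called, so that 0 of the 10 genes passed. The 7 further lists had 0 calls there in either direction, and over all genes 88 rose and 72 fell. That comparison had 6 arrays. No neuronal gene other than Gap43 was called in any alternative. When dim probe sets were left out, Stmn2, Map2, Mapt and Nefl had an adjusted p of 0.0422, 0.0329, 0.0456 and 0.0430, all short of 1.5-fold. The fit and the adjustment then covered only the brighter probe sets. Stmn2 also passed the p alone with a trended and robust prior (0.0378), and Map2 with centred arrays (0.0435).

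With the replicate block (the paired fit), Gap43 stayed called (adjusted p = 0.00342), 317 genes rose and 335 fell, and Nes was called lower, so that 1 other intermediate filament gene fell. That count was also 1 when dim probe sets were left out and with the trended and robust prior. Among the markers it added Msi1 (higher) and Krt18 (lower), and it changed no other call of a named gene. With arrays centred on their medians, 0 other tubulin genes were called. Without the minimum fold, 15 of the 100 genes of the further lists were higher and 3 lower, beside 5.75% and 4.55% of all genes. Higher were 1 other intermediate filament, 3 other tubulin, 3 other microtubule-associated, 4 growth cone, 3 presynaptic and 1 motor genes. Lower were 1 growth cone and 2 presynaptic genes. Over all genes, 1147 were higher and 908 lower.

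Leaving out 1 array at a time, the counts ran from 0 to 1 for other intermediate filament genes higher and lower, other tubulin genes higher, growth cone genes higher and lower, presynaptic genes lower and motor genes lower. Over all genes they ran from 182 to 405 higher and from 166 to 424 lower, with the most without knockdown replicate 3. The fewest were without control replicate 3 (higher) and without knockdown replicate 2 (lower).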
